A study of Mus musculus with 12 samples.

Results

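Mitochondrial complex I genes were examined in mouse HATX3 embryonic stem cells (ESCs) before and after induction of Xist. They were taken as the protein-coding genes whose names start with Nduf and that are listed in the tables of all 12 libraries. This rule found 46 of 25759 listed genes, of which 44 are autosomal and 2 are on the X chromosome. The X-linked genes are Ndufa1 (ENSMUSG00000016427, chrX:37187588-37191163 on the minus strand of GRCm38) and Ndufb11 (ENSMUSG00000031059, chrX:20615326-20617619 on the minus strand).

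These ESCs are diploid cells of a line that began as haploid. They carry a doxycycline-inducible promoter at the start of Xist and the nls-rtTA transactivator in the Rosa26 locus. The wild type is this parental line (WT replicates 1, 2 and 3), and ΔCdk8 cells are 3 clonal lines of it (clones 8, 11 and 15) in which the start codon of Cdk8 was deleted with CRISPR/Cas9. Polyadenylated RNA of each was sequenced in uninduced conditions and after 48 h of Xist expression, giving 4 groups of 3 libraries. All groups carry the inducible Xist allele, and nothing in the sources used here says whether WT replicates were separate cultures, so that p-values may measure technical spread.

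Complex I, or NADH:ubiquinone oxidoreductase, oxidises NADH at the inner mitochondrial membrane, passes the electrons to ubiquinone and pumps protons. Its matrix arm holds the redox centres, and its membrane arm holds the proton pumps, which the mitochondrial genome encodes. Accessory subunits surround this core, and assembly factors act during its construction without remaining in it. Among the 46 genes, 7 encode core subunits, 9 accessory subunits of the matrix arm and 19 accessory subunits of the membrane arm, among them both X-linked genes. Ndufab1 encodes the acyl carrier protein found in both arms. The remaining genes are 8 assembly factors (Ndufaf1 to Ndufaf8) and Ndufa4 and Ndufa4l2, which share the naming but are not counted as subunits here. NDUFA4 is now placed with cytochrome c oxidase, the last enzyme of the chain.

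RefSeq promoter windows of GRCm38.p6, from 250 bases before to 50 bases after the start of transcription, were matched by symbol for 40 of the 46 genes. They were searched on both strands for motifs of factors known for nuclear respiratory genes. The YY1 motif AANATGGCG was found in 8 of the 40 genes (20%), in 2.38% of all 32851 windows and in 6.38% of 9229 expressed genes. The NRF1 motif (GCGCA, any base, then GCGC) was found in 9 genes (22.5%, against 4.6% of all windows and 12.1% of expressed genes). CCGGAAG, the ETS factor motif, was found in 6 genes (15%, against 8.86% and 21.1%), and GGGCGG, the Sp factor motif, in 21 genes (52.5%, against 35.7% and 71.5%). A window can hold several of these motifs. Ndufb11 held the YY1 motif alone and Ndufa1 the Sp motif alone, so that the X-linked pair shared none of the 4. The windows below show both X-linked genes first and then 4 autosomal genes described later, in 30 bases each, with the motif in capitals (the Sp motif in Ndufa1 lies on the opposite strand).
Ndufb11: tcaccaacacAAAATGGCGacgagaagaga
Ndufa1: cgccgctcctttCCGCCCaggctttttgaa
Ndufa7: gagcggaaggAATATGGCGtccgctactcg
Ndufa9: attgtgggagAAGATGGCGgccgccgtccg
Ndufc1: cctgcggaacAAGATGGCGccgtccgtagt
Ndufs7: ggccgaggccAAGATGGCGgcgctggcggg
The window of Ndufb11 is chrX:20617811-20617840 on the minus strand, with its motif 211 bases before the start and inside the first exon of transcripts of Rbm10, which is read from the other strand. That of Ndufa1 is chrX:37191446-37191475 on the minus strand, 225 bases before the start and inside the first exon of Rnf113a1, again read from the other strand. The other windows are chr17:33824617-33824646 (Ndufa7, plus strand), chr6:126849096-126849125 (Ndufa9, minus strand), chr3:51408914-51408943 (Ndufc1, minus strand) and chr10:80249463-80249492 (Ndufs7, plus strand). In these 4 autosomal genes the YY1 motif includes an annotated start codon, the ATG in its centre, and in Ndufb11 it does not. These matches are letters in a window and no measurement of binding.

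All 46 genes were detected in every library. Levels are given as TPM, reads per exon length scaled to the same total in every library, and the libraries held 22170087 to 60798578 reads on genes. The Nduf genes took 0.22% to 0.278% of these reads. In uninduced wild-type cells Ndufa4 was the most abundant (764 ± 45.6 TPM, s.d., n = 3), followed by Ndufa7 of the matrix arm (441 ± 54.9). Neither overlapped the gene below it in the order in any replicate. Core subunits described here included Ndufv1, which holds the flavin that accepts electrons from NADH (180 ± 8.56), Ndufs3 (126 ± 10), Ndufs1 (125 ± 1.03) and Ndufs7 (65.2 ± 17.6). The lowest were the membrane arm subunit Ndufb2 (14.6 ± 1.35) and the assembly factors Ndufaf2 (11.6 ± 1.18) and Ndufaf8 (10.9 ± 3.55). Ndufa1 and Ndufb11 were the 16th and 18th of the 46, in the midst of the autosomal subunits, and their ranges overlapped those of their neighbours in the order. For 5 genes fewer than 80% of the exon reads were unique in at least 1 library (on average 13.3% in Ndufb4, 32.6% in Ndufa12, 37.2% in Ndufab1, 39.6% in Ndufs5 and 55.4% in Ndufa13), so that their levels depend on how reads shared with other loci were assigned and are uncertain.

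**Figure D1:**
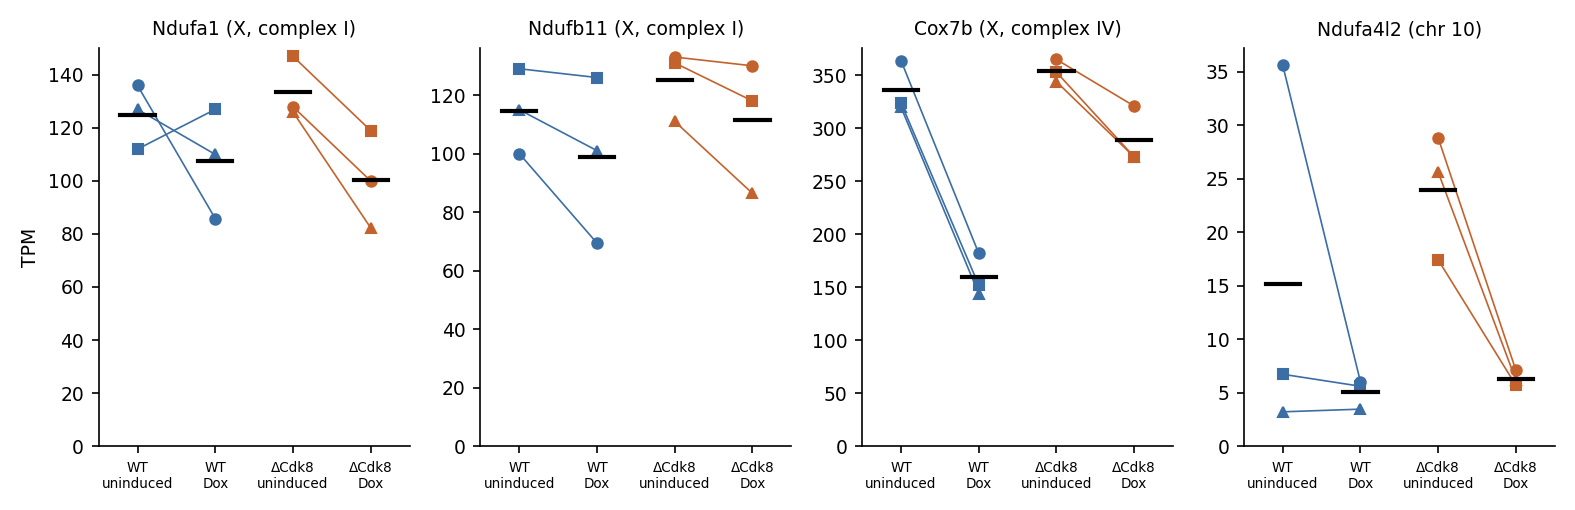
TPM (linear axis from 0) of Ndufa1, Ndufb11, Cox7b and Ndufa4l2 in the 12 libraries, in columns for uninduced and induced (Dox) wild-type (blue) and ΔCdk8 (orange) cells. Circles, squares and triangles are replicates 1, 2 and 3 or clones 8, 11 and 15, lines join a replicate or clone, and black bars are group means. The X-linked Ndufa1 and Ndufb11 stayed within 69.4 to 147 TPM, while Ndufa4l2 spread from 3.2 to 35.6 TPM.

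The series checks were as follows. Summed TPM of 8 ES cell markers was 3.97e+03 to 7.54e+03 over the libraries, against at most 32.4 for fibroblast, 36.3 for trophoblast, 6.99 for endoderm, 3.98 for neural and 1.67 for mesoderm markers. Cdk8 itself did not separate the genotypes at the level of total reads, with uninduced wild-type libraries at 69.3 ± 4.98 TPM (s.d., n = 3) and uninduced ΔCdk8 libraries at 58.8 ± 25.5 TPM (34.4, 56.8 and 85.3 in clones 8, 11 and 15). Reads outside the deleted part do not check it. Xist has no row in the tables, so induction could be read only from X-linked genes.

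The first question was whether the X-linked subunits followed the X chromosome or the autosomal part of their complex when Xist was induced in wild-type cells. Ndufa1 and Ndufb11 both kept most of their transcript, whereas most X-linked genes lost more than they kept. Both encode small accessory subunits of the membrane arm that are needed for assembly of the complex. Ndufa1 was at 136, 112 and 127 TPM in uninduced replicates 1, 2 and 3 and at 85.8, 127 and 110 TPM in the induced ones. The groups overlapped, with replicate 1 lower, replicate 3 slightly lower and replicate 2 higher after induction. Ndufb11 was at 100, 129 and 115 TPM before and at 69.4, 126 and 101 TPM after induction. Here all replicates were lower after induction, and the groups again overlapped.

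Residual expression, the TPM in induced over that in uninduced conditions of the same replicate, was 0.63, 1.14 and 0.861 for Ndufa1 (0.876 ± 0.254, s.d., n = 3) and 0.692, 0.976 and 0.88 for Ndufb11 (0.849 ± 0.144). The median X-linked gene had a residual expression of 0.342, 0.328 and 0.272 (428 genes with at least 1 TPM), and the median of the 34 autosomal complex I subunits was 1.04, 1.14 and 1.09. In each replicate the pair lay between those medians, save for Ndufa1 in replicate 2, which lay at the median of the autosomal subunits. Ordered from the highest residual expression, Ndufa1 was the 25th and Ndufb11 the 27th of the 428 X-linked genes. Among the 103 with at least 50 TPM, whose median was 0.407, 0.454 and 0.388, they were the 4th and the 5th. Within the complex they stood at the low end. In replicate 1 none of the 34 autosomal subunits had a residual expression below either gene, and in replicate 3 there were 2 below Ndufa1 and 3 below Ndufb11. In replicate 2 there were 17 and 7.

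Cox7b, the only X-linked subunit among the cytochrome c oxidase genes examined, followed another course. It was at 364, 324 and 320 TPM before and 182, 152 and 144 TPM after induction, and the groups were far apart. Its residual expression was 0.472 ± 0.026 (s.d., n = 3), and it fell by 1.07 on the log2 scale (s.e. 0.11, edgeR adjusted p = 0.00511). Idh3g, an X-linked subunit of isocitrate dehydrogenase in the citrate cycle, had a residual expression of 1.02 ± 0.0879 and a log2 fold change of 0.04.

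**Figure D2:**
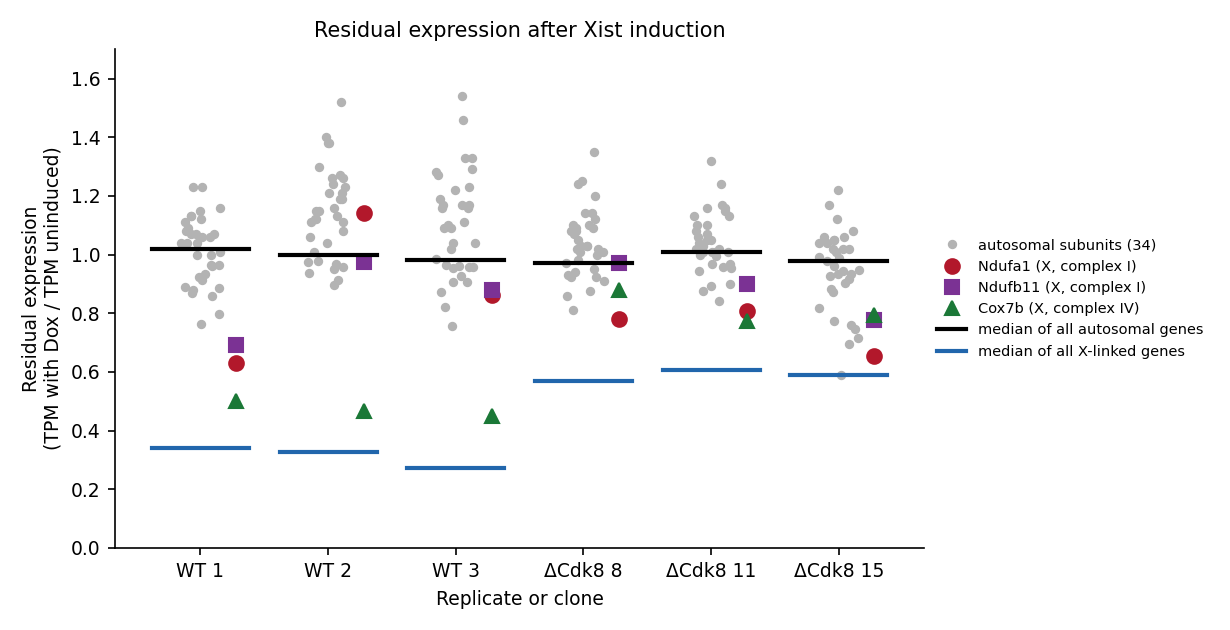
Residual expression (TPM induced over TPM uninduced, no unit) in each wild-type replicate and ΔCdk8 clone. Grey points are the 34 autosomal complex I subunits, coloured symbols Ndufa1, Ndufb11 and Cox7b, and lines the medians of all autosomal (black) and all X-linked (blue) genes. In wild-type cells the X-linked complex I pair lies between 0.63 and 1.14, above Cox7b (0.449 to 0.5) and the X-linked median (0.272 to 0.342).

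The edgeR quasi-likelihood test gave Ndufa1 a log2 fold change of -0.20 (s.e. 0.20, 95% interval -0.67 to 0.28, adjusted p = 0.63) and Ndufb11 one of -0.19 (s.e. 0.25, interval -0.77 to 0.40, adjusted p = 0.729). Neither passed the threshold, set at more than a 2-fold change and an adjusted p under 0.01, which 27.7% of the 480 X-linked genes tested passed as lower. With the replicate number as a block the edgeR values were -0.22 (adjusted p = 0.438) and -0.23 (adjusted p = 0.251), with 52.3% of X-linked genes called lower. In a test chosen after seeing the data, each X-linked gene was set against the median log2 fold change of X-linked genes, -1.55. Ndufa1 lay 1.35 above this median (s.e. 0.20, edgeR adjusted p = 0.0324) and Ndufb11 1.36 above it (s.e. 0.25, adjusted p = 0.0489). At an adjusted p under 0.05, 10.4% of X-linked genes lay above the median. With the block the edgeR differences were 1.37 (adjusted p = 0.00916) and 1.36 (adjusted p = 0.0045), with 26.2% of X-linked genes above. Without replicate 2 the blocked difference of Ndufa1 was 1.23 and its edgeR adjusted p 0.0658, and without replicates 1 or 3 the adjusted p was 2.83e-06 and 0.0262. For Ndufb11 the blocked adjusted p was at most 0.0479 whichever replicate was left out.

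Of the nearest expressed genes on each side of the pair, each had a lower mean residual expression in wild-type cells than the complex I gene beside it, although Uba1 differed from Ndufb11 by far less than the spread. Rnf113a1, which starts from the other strand 81 bp from Ndufa1, kept 0.385 ± 0.189 (s.d., n = 3) of its TPM in wild-type cells, and Nkap and Upf3b on the other side of Ndufa1 kept 0.648 ± 0.059 and 0.563 ± 0.0834. Rhox1, further along, kept 0.222 ± 0.234 from a level of 1.73 TPM. Rbm10 overlaps Ndufb11 by 117 bp on the opposite strand and kept 0.596 ± 0.0588. Beyond it Uba1, an abundant gene for the enzyme that activates ubiquitin, kept 0.848 ± 0.147, near the value of Ndufb11. Jade3 and Rp2 on the other side kept 0.367 ± 0.0431 and 0.376 ± 0.0096. In the clones the order differed, with Nkap at 0.88 ± 0.0949 and Upf3b at 0.794 ± 0.071 above Ndufa1 (0.747 ± 0.0829), and Uba1 at 0.913 ± 0.0772 above Ndufb11 (0.883 ± 0.0986). Rnf113a1 (0.528), Rhox1 (0.39), Rbm10 (0.803), Jade3 (0.676) and Rp2 (0.753) lay below the complex I gene next to them. The library kit keeps the strand, but whether the counting used it is not given in the sources used here, so reads in the 117 bp shared by Ndufb11 and Rbm10 could count for either gene.

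No Nduf gene was called on induction in wild-type cells, autosomal subunits included. None of the 46 passed the threshold in the edgeR test, against 1.16% of all 14006 genes tested. With the replicate block the counts were 0 of 46 and 3.95%, and with DESeq2 0 and 4.73%. At an unadjusted p under 0.05, 2 Nduf genes were higher and 1 lower in edgeR (21.2% of all genes in either direction), 13 were higher and 1 lower with the block (38.9%), and 3 were higher and 2 lower in DESeq2 (23.8%). The median log2 fold change was 0.17 over the 34 autosomal subunits, 27 of them above 0, and 0.03 over all genes tested. Summed TPM of the autosomal subunits was 4116 ± 264 before and 4482 ± 564 after induction (s.d., n = 3), and the groups overlapped. Within replicates the sums went from 3813 to 3833, from 4240 to 4861 and from 4296 to 4750, higher after induction in each, and no test was run on them. TPM of the groups did not overlap for 9 of the 46 genes (19.6%, against 27.1% of 11812 expressed genes), with 6 higher and 3 lower after induction.

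Of the 7 core subunits, 6 had a log2 fold change above 0, with a median of 0.15 and a range from -0.09 (Ndufv2) to 0.36 (Ndufs8). Ndufs8, an iron-sulphur subunit of the quinone module, was at 79.8, 93.2 and 99 TPM before and 88.5, 121 and 131 TPM after induction, with overlapping groups (s.e. 0.20, edgeR adjusted p = 0.358). Summed TPM of the core subunits was 945 ± 48.4 and 1021 ± 90.8, likewise higher after induction in each replicate (889 to 916, 970 to 1080 and 976 to 1066). In the matrix arm the median was 0.17 over 9 accessory subunits, and in the membrane arm 0.18 over 17 autosomal ones.

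Ndufa3, a small membrane arm subunit, had the highest value of the 46. It was at 79.6, 73.4 and 72.7 TPM before and 98.2, 101 and 112 TPM after induction, so that the groups did not overlap. Its log2 fold change was 0.48 (s.e. 0.13, edgeR adjusted p = 0.0846), with the block 0.48 (adjusted p = 0.0282), short of the fold threshold in both. Ndufa13, also of the membrane arm and known as GRIM-19, had 0.33 (s.e. 0.24, edgeR adjusted p = 0.475), from 79, 115 and 113 TPM to 83.9, 160 and 150 TPM. Its reads are in part shared with other loci.

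Of the 8 assembly factors 4 were above and 4 below 0, with a median of 0.02 beside 0.03 for all genes, and their summed TPM was 162 ± 4.5 before and 154 ± 4.91 after induction (s.d., n = 3). Within replicates the sum went from 167 to 156, from 160 to 158 and from 159 to 149, lower after induction in each and without overlap of the groups, and no test was run on it. Ndufaf4, an assembly factor known to act early in assembly, was at 19.3, 23 and 23.1 TPM before and 15.1, 13.9 and 13.4 TPM after induction. The groups did not overlap, and the log2 fold change was -0.55 (s.e. 0.13, edgeR adjusted p = 0.0649, with the block -0.55 and 0.0198), under the fold threshold. Ndufaf2, which takes the place of Ndufa12 during assembly, went from 10.6, 12.9 and 11.2 TPM to 8.06, 8.34 and 10.1 TPM (log2 fold change -0.23, s.e. 0.14, edgeR adjusted p = 0.397).

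**Figure D3:**
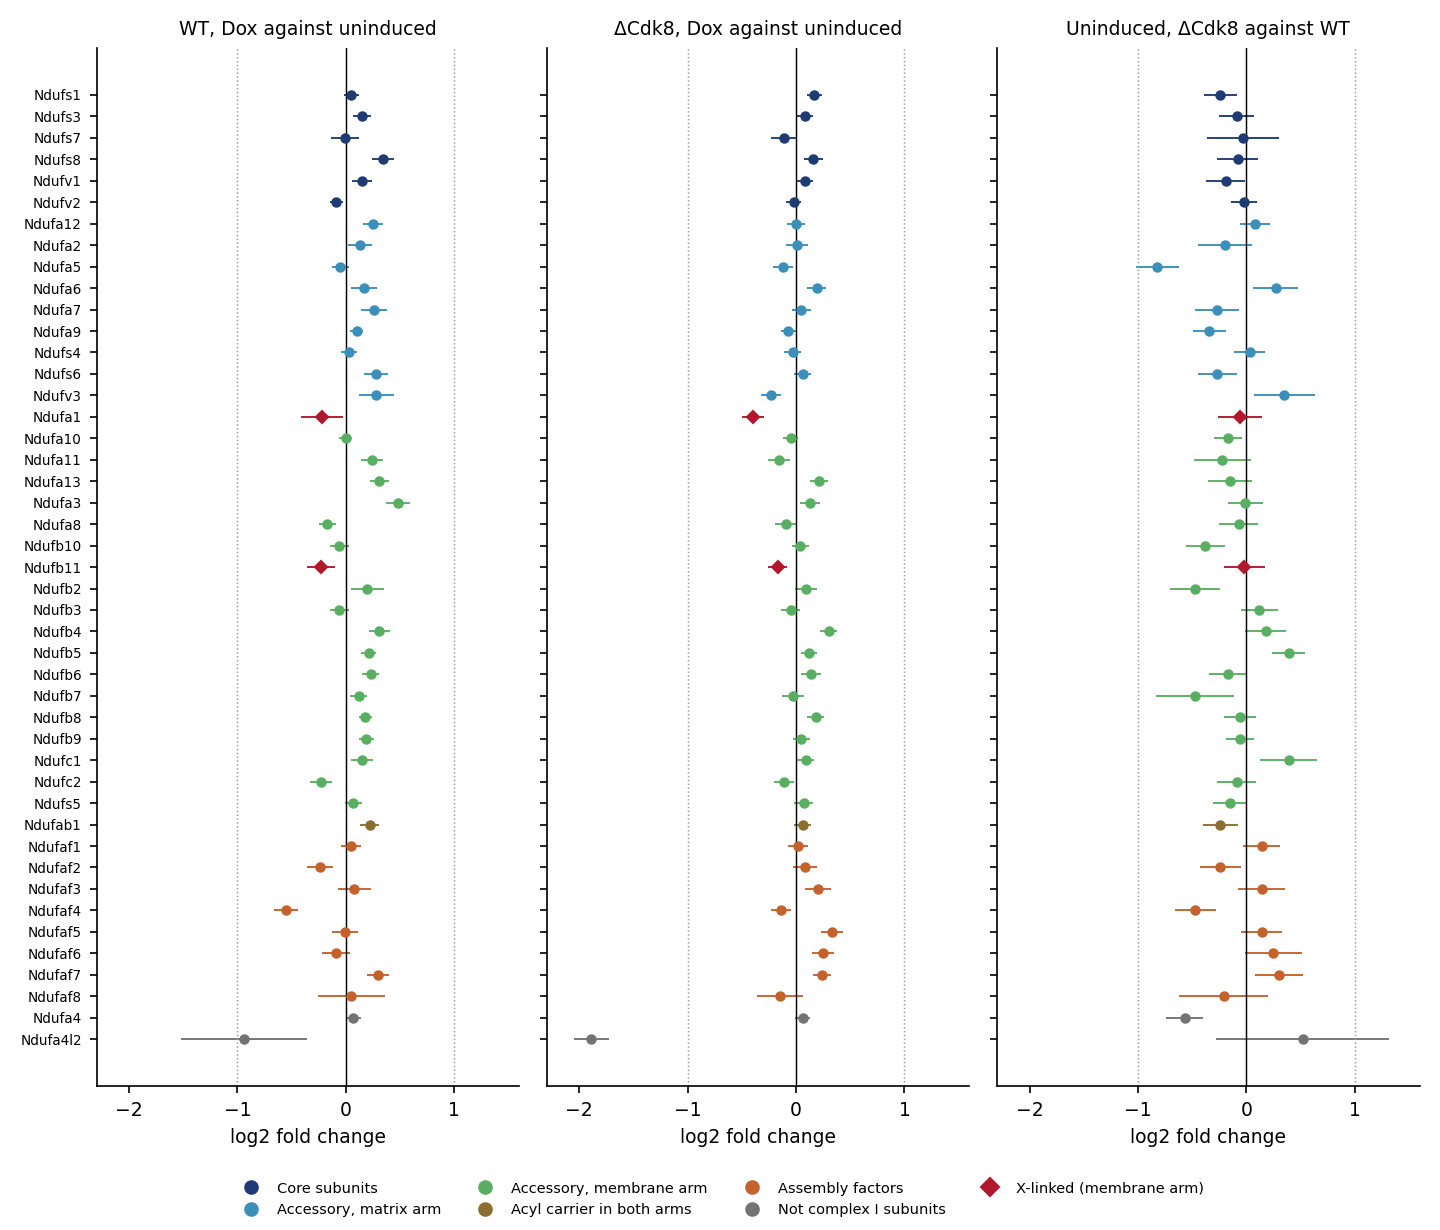
Log2 fold changes of the Nduf genes reported here, ordered by role, on induction in the wild type and in the clones (replicate block) and between uninduced ΔCdk8 and wild-type cells (no block). Bars are standard errors and dotted lines mark a 2-fold change; the value of -1.89 for Ndufa4l2 in ΔCdk8 cells is the only one past the threshold.

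In ΔCdk8 cells the question was whether loss of Cdk8 altered the response of the X-linked subunits. Ndufa1 was at 128, 147 and 126 TPM in uninduced clones 8, 11 and 15 and at 100, 119 and 82.3 TPM after induction. Every clone was lower and the groups did not overlap. Ndufb11 was at 133, 131 and 111 TPM before and 130, 118 and 86.4 TPM after induction, lower in every clone but with overlapping groups. Residual expression was 0.781, 0.808 and 0.653 for Ndufa1 (0.747 ± 0.0829, s.d., n = 3) and 0.972, 0.899 and 0.777 for Ndufb11 (0.883 ± 0.0986). The median X-linked gene had 0.569, 0.608 and 0.591 (449 genes), and the median autosomal subunit 1.03, 1.03 and 0.969. Both genes lay above this X-linked median in every clone. By mean residual expression Ndufa1 was the 92nd and Ndufb11 the 32nd of 449 X-linked genes, and the 41st and the 13th of the 112 with at least 50 TPM. Over those 112 genes the median was 0.652, 0.714 and 0.665, so that in clone 15 Ndufa1 lay below it. No autosomal subunit was below Ndufa1 in clones 8 and 11, and 1 was below it in clone 15, while 10, 4 and 6 of 34 were below Ndufb11.

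The edgeR test gave Ndufa1 a log2 fold change of -0.39 (s.e. 0.27, adjusted p = 1) and Ndufb11 one of -0.15 (s.e. 0.25, adjusted p = 1). With the clone as a block, edgeR gave -0.40 (s.e. 0.10, 95% interval -0.62 to -0.19, adjusted p = 0.0144) and -0.17 (s.e. 0.09, interval -0.36 to 0.02, adjusted p = 0.255), neither past the threshold, which 24.1% of 531 X-linked genes passed as lower with the block. Against the median of X-linked genes, Ndufb11 lay 0.56 higher with the block (s.e. 0.09, edgeR adjusted p = 0.000442), whichever clone was left out (0.47 to 0.65), and 17.5% of X-linked genes lay above it at an adjusted p under 0.05. Ndufa1 lay 0.32 above the median (s.e. 0.10, edgeR adjusted p = 0.0567), with 0.41 and an adjusted p of 0.0162 without clone 15, 0.31 and 0.15 without clone 11, and 0.28 and 0.416 without clone 8. Without the block neither gene, and no X-linked gene, lay above the median at that threshold (0.31 and 0.55, edgeR adjusted p = 1 for both).

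The difference between the genotypes was tested directly. For Ndufa1 the interaction of genotype and induction was -0.17 on the log2 scale (s.e. 0.35, 95% interval -0.94 to 0.59), and with the block -0.17 (s.e. 0.22, interval -0.66 to 0.32, edgeR adjusted p = 0.691). For Ndufb11 it was 0.06 (s.e. 0.38, interval -0.78 to 0.89), and with the block 0.07 (s.e. 0.16, interval -0.29 to 0.44, edgeR adjusted p = 0.83). The sign of either value changed when single libraries were left out. The median interaction over 549 X-linked genes was 0.96 with the block, that is, a higher remainder in ΔCdk8 cells. It lay outside the blocked intervals of Ndufa1 and Ndufb11. Both genes had kept most of their TPM in wild-type cells (0.876 and 0.849), which left little room for a higher remainder. This comparison therefore cannot show whether their response depends on Cdk8. Cox7b went from 365, 353 and 344 TPM to 321, 273 and 273 TPM in the clones, a residual expression of 0.815 ± 0.0556, and its interaction was 0.83 (edgeR adjusted p = 0.435, with the block 0.00203 at a fold change under 2). On residual expression, an exact permutation test of 3 against 3 values gave p = 0.5 for Ndufa1, 0.7 for Ndufb11 and 0.1 for Cox7b, where 0.1 is the smallest two-sided p possible. Divided by the median residual expression of autosomal subunits in the same replicate, Ndufa1 was at 0.797 ± 0.197 in wild-type replicates and 0.739 ± 0.0582 in the clones, and Ndufb11 at 0.776 ± 0.0996 and 0.873 ± 0.0701 (s.d., n = 3, exact permutation p = 0.7 and 0.3).

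Among the autosomal genes, Ndufa4l2 was the only one that passed a threshold on induction in ΔCdk8 cells, and it did so only where the clones were paired or in DESeq2. Ndufa4l2 (chr10:127514967-127517154 on the plus strand) encodes a relative of NDUFA4 known to be induced in hypoxia. It was at 28.8, 17.4 and 25.6 TPM in uninduced clones 8, 11 and 15 and at 7.08, 5.68 and 6.16 TPM after induction, with the groups well apart. It fell by 1.89 on the log2 scale with the block (s.e. 0.16, edgeR adjusted p = 1.41e-07), and DESeq2 gave an adjusted p of 1.44e-08, whereas edgeR without the block gave 0.474. The count of called Nduf genes was therefore 0 of 46 without the block (0 of 14832 genes tested), 1 with it (1.4% of genes) and 1 in DESeq2 (0.243%). At an unadjusted p under 0.05 the edgeR test without the block had 1 lower Nduf gene and none higher, against 2.64% of all genes, while 8 were higher and 3 lower with the block (24.8%) and 1 was higher and 1 lower in DESeq2 (3.35%).

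In wild-type cells Ndufa4l2 was at 35.6, 6.71 and 3.2 TPM before and 6.01, 5.59 and 3.45 TPM after induction, so that only replicate 1 started high. The log2 fold change was -1.58 (s.e. 0.86, edgeR adjusted p = 0.351, with the block -0.94 and 0.279), and its value moved from -2.04 to -0.14 with the replicate left out. Its interaction with genotype was -0.29, and with the block -0.87 (edgeR adjusted p = 0.425). Hand1, one of 2 trophoblast markers, was at 35.5, 0.286 and 0.598 TPM in the uninduced wild-type replicates and at 27.1, 9.36 and 35.4 TPM in the uninduced clones, high in the same libraries as Ndufa4l2. After induction it was at 23.1, 0.0568 and 0.0895 TPM in wild type and 13.1, 8.71 and 16.6 TPM in the clones, where Ndufa4l2 was low throughout. The other marker, Cdx2, was at most 1.41 TPM in any library, and the part of such cells in the change of Ndufa4l2 was not tested. In bulk RNA, fewer cells of a type and less RNA per cell cannot be told apart.

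No subunit was called in ΔCdk8 cells. The median log2 fold change over all 46 genes was 0.06, and summed TPM of the autosomal subunits was 4136 ± 329 before and 4219 ± 515 after induction (s.d., n = 3). TPM of the groups did not overlap for Ndufa1, Ndufa4l2 and the assembly factor Ndufaf5 (6.52% of 46, against 4.95% of 12303 expressed genes). Ndufaf5, which hydroxylates NDUFS7 during assembly, was at 27.2, 25.1 and 27.8 TPM before and 30.1, 30.7 and 32.5 TPM after induction (log2 fold change 0.33, s.e. 0.18, edgeR adjusted p = 1, with the block 0.0362 at a fold under 2). The other genes with the largest values were Ndufb4 at 0.30 and Ndufaf6 at 0.26 (edgeR adjusted p with the block 0.018 and 0.124), Ndufv3 at -0.23 (0.118) and Ndufaf4 at -0.15.

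No Nduf gene was called for the interaction in edgeR without the block (0 of 15137 genes were), with the block (0 of 46, against 0.998%) or in DESeq2 (0, against 0.218%). At an unadjusted p under 0.05 there were none in edgeR without the block (3.88% of all genes), 3 higher and 2 lower with it (22.7%) and 1 higher in DESeq2 (4.9%). Assembly factors had the 3 highest values with a TPM of at least 5, namely Ndufaf4 at 0.43, Ndufaf5 at 0.37 and Ndufaf6 at 0.37 on the log2 scale, with blocked edgeR adjusted p-values of 0.1, 0.164 and 0.195. The 3 lowest were Ndufv3 at -0.45, Ndufa11 at -0.35 and Ndufa3 at -0.33 (blocked edgeR adjusted p = 0.192, 0.224 and 0.198). The median residual expression of the assembly factors was 0.934 ± 0.0626 in wild-type replicates and 1.07 ± 0.0352 in the clones (s.d., n = 3), and that of all autosomal genes 1 ± 0.0161 and 0.986 ± 0.0185.

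Before induction, uninduced ΔCdk8 cells were compared with uninduced wild-type cells to ask whether the mutation alone shifted the complex. The X-linked pair stood near the wild-type level, with log2 fold changes of -0.06 for Ndufa1 (s.e. 0.20, edgeR adjusted p = 0.888) and -0.02 for Ndufb11 (s.e. 0.19, edgeR adjusted p = 0.969). By TPM their means were higher in the clones, at 134 ± 11.3 against 125 ± 12.4 for Ndufa1 and 125 ± 12.3 against 115 ± 14.4 for Ndufb11 (s.d., n = 3), with overlapping groups. No Nduf gene was called in edgeR (0 of 46, and 0 of 14646 genes tested) or in DESeq2 (0, against 2.64%). At an unadjusted p under 0.05, 1 was higher and 3 were lower in edgeR (20.4% of all genes) and 1 was higher and 5 were lower in DESeq2 (24.7%). The median log2 fold change was -0.12 over the 34 autosomal subunits, 26 of them below 0, with all 7 core subunits below 0, and 0.03 over all genes tested. These counts turned with the scale. By the ratio of mean TPM, 15 of the 34 autosomal subunits and 3 of the 7 core subunits were below 0, with medians of 0.05 and 0.05, on a scale where the median of all expressed genes was 0.15. Summed TPM of the autosomal subunits was 4136 ± 329 in the clones and 4116 ± 264 in wild type (s.d., n = 3), with overlapping groups. Summed TPM of the assembly factors was 188 ± 12.8 in ΔCdk8 against 162 ± 4.5 in wild-type cells (s.d., n = 3), with 173 to 198 against 159 to 167 over the libraries. This sum is on the TPM scale, on which the median gene was itself higher in the clones. The edgeR median log2 fold change of the 8 assembly factors was 0.14. Ndufa4l2 had 0.52 on the log2 scale, from 0.03 to 2.13 with a library left out. TPM of the groups did not overlap for 10 genes (21.7%, against 23.5% of 12139 expressed genes). Of these, 7 were higher and 3 lower in the clones, again on the scale where the median gene was 0.15 higher.

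Several of the genes with large values in this comparison lay on chromosomes 3 and 6, where the clones differed from one another. On other chromosomes, Ndufaf4 (chromosome 4) was at 19.3, 23 and 23.1 TPM in wild type and 14.6, 18.9 and 18.5 TPM in the clones, without overlap, and had -0.47 on the log2 scale (s.e. 0.19, edgeR adjusted p = 0.24). Ndufb7 (chromosome 8) also had -0.47 (s.e. 0.36, edgeR adjusted p = 0.444), with 137, 259 and 271 TPM in wild type and 212, 208 and 114 TPM in the clones. Ndufb5 and Ndufc1, both of the membrane arm, are the only Nduf genes on chromosome 3. Ndufb5 was at 67.3, 66.2 and 65.7 TPM in wild type and at 115, 74.4 and 106 TPM in clones 8, 11 and 15 (log2 fold change 0.39, s.e. 0.15, edgeR adjusted p = 0.218). Ndufc1 was at 54.3, 52.4 and 48.8 TPM in wild type and at 97.7, 42.6 and 89.8 TPM in the clones (0.39, s.e. 0.26, edgeR adjusted p = 0.397). Both were highest in clones 8 and 15, and in clone 11 Ndufc1 lay below every wild-type replicate. In a calculation added after seeing the data, the median log2 ratio to the wild-type mean over 420 genes of chromosome 3 was 0.53, -0.02 and 0.64 in uninduced clones 8, 11 and 15.

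The 4 Nduf genes of chromosome 6 were each lower than in wild type in at least 1 clone. Ndufa5, a matrix arm subunit, was at 110, 122 and 122 TPM in wild type and 89.9, 68.9 and 61.6 TPM in the clones, without overlap (log2 fold change -0.82, s.e. 0.20, edgeR adjusted p = 0.141, DESeq2 0.00756 at a fold under 2). Ndufa4 was at 806, 715 and 772 TPM in wild type and 718, 512 and 501 TPM in the clones (-0.57, s.e. 0.17, edgeR adjusted p = 0.172, DESeq2 0.0492). Ndufa9, a matrix arm subunit that binds NADPH, was at 200, 221 and 224 TPM in wild type and at 207, 142 and 224 TPM in the clones, low in clone 11 alone. Ndufb2 had -0.47 on the log2 scale. The median over 425 genes of chromosome 6 was 0.01, -0.56 and -0.13 in the clones, so that the low value of Ndufa9 in clone 11 (-0.56) equalled that of its chromosome, while Ndufa5, Ndufa4 and Ndufb2 were also low in clone 15 (-1.07, -0.75 and -0.88). Chromosome 14 (324 genes, 0.51, 0.59 and 0.56) holds no Nduf gene. On chromosome 6, Ndufa9 lies at position 126821721, far from Ndufa4, Ndufa5 and Ndufb2 (11900292, 24518666 and 39592574). A median does not show whether a shift spans the whole chromosome. DNA copy number was not examined, and the cause of the shifted medians was not tested. The shifts were also present after induction (0.51, -0.05 and 0.68 on chromosome 3).

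**Figure D4:**
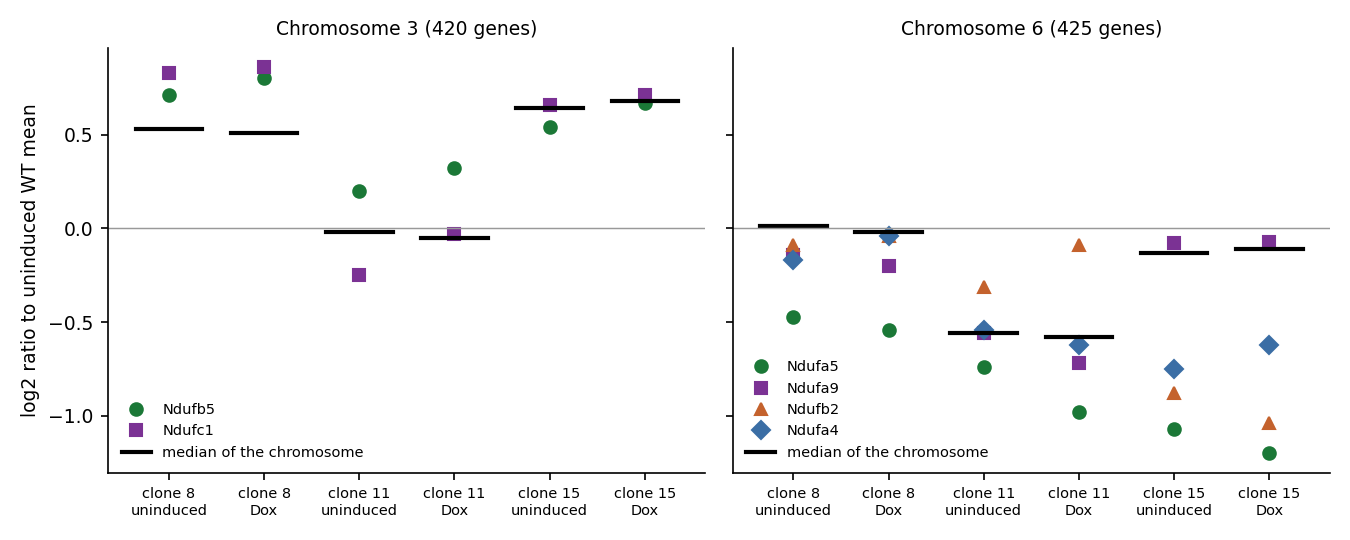
Log2 ratio to the uninduced wild-type mean, after scaling by the autosomal median, of the Nduf genes on chromosomes 3 and 6 (symbols) in the 6 ΔCdk8 libraries, uninduced and induced (Dox). Black bars are the median of all expressed genes of the chromosome. Ndufb5 and Ndufc1 lie highest in clones 8 and 15, where the uninduced chromosome 3 median is 0.53 and 0.64, and Ndufa9 lies lowest in clone 11, where the uninduced chromosome 6 median is -0.56.

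In some libraries the deviation of a gene from its group moved with base composition. Transcript GC content of the 46 genes ranged from 39.5% to 60.4% (median 50.8%). Ndufb7 (59.7% GC), a membrane arm subunit, was at 137, 259 and 271 TPM in uninduced wild-type replicates 1, 2 and 3 and 132, 289 and 295 TPM in the induced ones. Ndufs7 (59.6% GC), a core iron-sulphur subunit, was at 45.1, 77.8 and 72.7 TPM and at 34.5, 92.4 and 74.4 TPM. Replicate 1 was the lowest for both genes in both conditions. In the clones, Ndufs7 was at 88.8, 78.8 and 44 TPM before and 89.6, 86.8 and 25.9 TPM after induction, with clone 15 lowest. Across the 46 genes, Pearson's r between GC content and a gene's deviation in a library, taken as log2(TPM + 1) minus the mean of its group, was -0.56 in induced wild-type replicate 1 and -0.49 and -0.62 in clone 15 before and after induction, and 0.53 and 0.41 in induced wild-type replicates 2 and 3. In uninduced wild-type replicates 1, 2 and 3 Pearson's r was -0.10, 0.28 and -0.01 and Spearman's rho -0.38, 0.40 and 0.30, of the same signs by rank as in the induced replicates. In uninduced replicate 1 Ndufv3 (56% GC) and Ndufa4l2 (59.3% GC) lay 0.44 and 1.79 above their group means. In clones 8 and 11 Pearson's r was 0.39 and 0.16 before and 0.59 and 0.36 after induction. These are descriptions over genes that share a library and are not independent. Ndufa1 has 47.5% GC and Ndufb11 52.5%, and without wild-type replicate 1 their mean residual expression was 0.999 and 0.928. The part of base composition in the values of the X-linked pair was not tested.

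**Figure D5:**
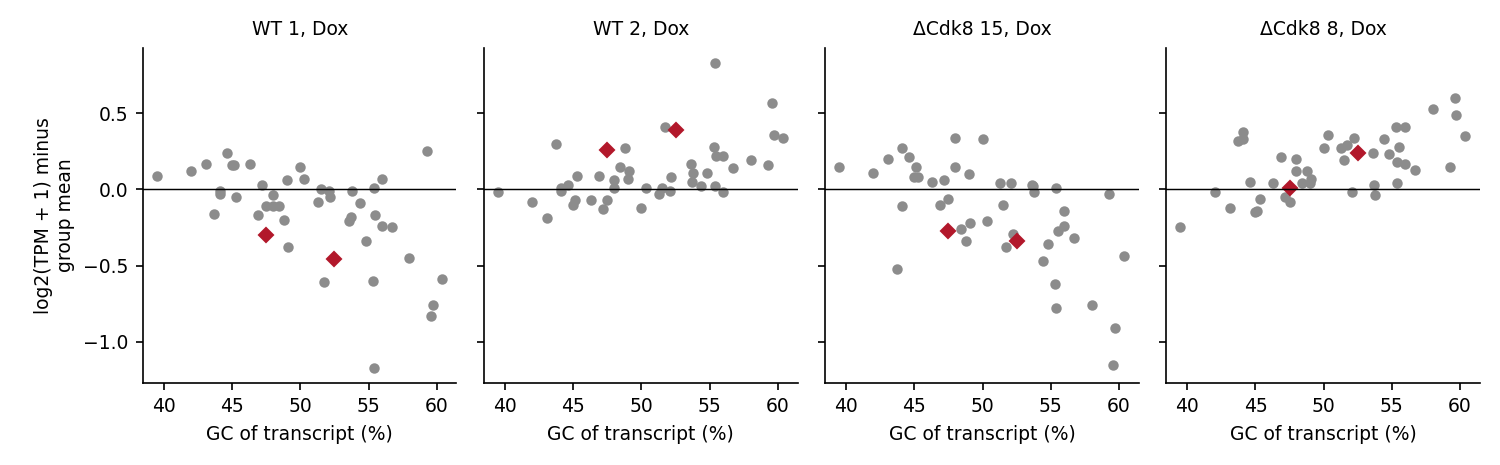
Deviation of each of the 46 Nduf genes, as log2(TPM + 1) minus the mean of its group, against transcript GC content (%) in 4 induced libraries. Grey points are autosomal genes and red diamonds Ndufa1 and Ndufb11. The deviation falls with GC content in wild-type replicate 1 (r = -0.56) and clone 15 (r = -0.62), and rises in wild-type replicate 2 (r = 0.53) and clone 8 (r = 0.59).

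The other respiratory genes place these values. The 7 complex I subunits encoded in mitochondria summed to 14235 ± 3013 TPM before and 19361 ± 10066 TPM after induction in wild-type cells (s.d., n = 3). Within replicates the sum went from 17617 to 30968, from 11835 to 13016 and from 13252 to 14100. In clones 8, 11 and 15 it went from 10320 to 10869, from 17165 to 19851 and from 8580 to 13723. No test was run on the sums. At a blocked edgeR adjusted p under 0.05, 1 of the 7 was higher in wild type (1713 of all 14006 genes tested). In the clones 5 were higher (830 of 14832), and none was called in either. Median log2 fold changes on induction in wild-type cells were 0.15 over 16 ATP synthase genes, -0.00 over 8 genes of complex II, 0.03 over 15 of complex III and 0.20 over 15 of cytochrome c oxidase, beside 0.17 for autosomal complex I subunits. They were 0.06 over 9 other complex I assembly factors and -0.09 over 9 regulators of respiratory genes. Cox7b was the only gene of these lists called in edgeR without the block (1.16% of all genes). With the block Cox6b2, a testis-type subunit of cytochrome c oxidase, also rose, from 38.3, 17.4 and 21.7 TPM to 96.2, 63.5 and 82.7 TPM (log2 fold change 1.80, s.e. 0.11, edgeR adjusted p = 0.000824), and its interaction was -1.34 (edgeR adjusted p = 0.00561). X-linked genes for other mitochondrial proteins were mostly lower after induction. Of 22 tested, 13 were called lower in wild-type cells without the block and 16 with it (27.7% and 52.3% of X-linked genes), with a median of -1.34. Pdha1, a subunit of pyruvate dehydrogenase, kept 0.571 ± 0.0403 of its TPM in the wild type and 0.889 in the clones, and Hccs, which attaches haem to cytochrome c, kept 0.414 ± 0.0523 and 0.685. In ΔCdk8 cells none of 23 was called without the block, where 0 of all 14832 genes tested were called. With the block 4 were called lower (24.1% of X-linked genes), namely Slc25a14, Gk, Pdk3 and Apoo.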

How the data were processed

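RNA of 12 libraries was analysed, in 4 groups of 3 set by the genotype and Xist induction in the sample descriptions. The authors aligned reads without adapter trimming to the Ensembl GRCm38 reference (builds per the labels GRCm38 and mm10) in the CLC Genomics Workbench, with each library kept apart. Counts deposited by the authors hold unscaled reads of a gene (total, unique, exon and intron). For TPM the authors divided exon reads by exon length and scaled each library, which was checked by recomputation. RPKM, also deposited by the authors, was left out. The deposited fraction columns (unique over total exon reads, intron over gene reads) were not used in tests. Shared reads, read strand and transcript GC content can all move single values, as can the total of 22170087 to 60798578 reads per library.

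The members and gene lists were chosen with earlier results of these data known. Total gene reads were tested in R 4.3.3 with edgeR 4.0.16 (TMM, filterByExpr with minimum counts of 10 and 15 in total, quasi-likelihood F test, Benjamini-Hochberg adjustment over all genes tested). A call needed more than a 2-fold change and an adjusted p below 0.01. The standard error was the log2 fold change over the square root of F. The induction fits used 6 libraries, the interaction fit all 12. DESeq2 1.42.0, other scalings, filters and read types, and leaving out each replicate were alternatives. The script was also run on simulated counts. Their spread was set below that of the fits without the block (common dispersion 0.0857 to 0.142). They therefore do not show how those fits perform on these data. All tests are two-sided, and 3 against 3 values cannot give an exact permutation p below 0.1.

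The replicate numbers in the titles were taken to pair induced with uninduced libraries. For the wild type the labels do not say that same-numbered libraries share a culture. Deviations from the group means correlated at 0.625, 0.498 and 0.467 for same-numbered wild-type replicates and at 0.775, 0.841 and 0.742 for clones 8, 11 and 15, each of which is the same line. The replicate block is given where it changed a call or a count.

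Residual expression covered genes with a mean uninduced TPM of at least 1, using Python 3.11.15, numpy 2.4.6, pandas 2.3.3, scipy 1.17.1 and matplotlib 3.10.9. GC content is that of the longest annotated coding transcript of a gene (GENCODE), UTRs included. Genes named were both X-linked members, members called, up to 3 in each direction with the largest change and a mean TPM of at least 5 in each comparison, the 3 highest and 3 lowest, core subunits, members with under 80% unique exon reads, Cox7b, called genes of other lists and the 2 nearest expressed genes on each side of an X-linked member. A gene that this rule also names is not reported here. Ndufb7, Ndufa9, Idh3g, Pdha1, Hccs, Hand1 and Cdx2 were named after their values were seen.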

Additional observations from a re-analysis of the deposited data

Results flagged for a closer look

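For 2 of the 46 Nduf genes (4.35%) residual expression lay on opposite sides of 1 in the genotypes in every replicate or clone, which was also so for 3.34% of all 11623 genes expressed in both, a share near that of the Nduf genes. Ndufa9 of the matrix arm had 1.04, 1.06 and 1.04 in wild-type replicates and 0.925, 0.892 and 0.989 in clones 8, 11 and 15, a difference in means of -0.114. The assembly factor Ndufaf6 had 0.817, 0.84 and 0.744 in wild-type replicates and 1.1, 1.11 and 1.24 in the clones, a difference of 0.35. The sign pattern itself was not tested. In the test of the interaction, Ndufa9 had -0.15 on the log2 scale (edgeR adjusted p = 1, with the replicate block 0.339) and Ndufaf6 0.37 (edgeR adjusted p = 1, with the block 0.195), so that neither difference passed the threshold.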

How the results depend on the processing

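The count of called Nduf genes on induction in ΔCdk8 cells was 0, and it was 1 (Ndufa4l2) in DESeq2 and with the replicate block, also with the block and TMM over autosomal genes, exon reads or unique gene reads, and with the block when any of the clones was left out. The log2 fold change of Ndufa4l2 was -1.89, -1.89, -1.91, -1.87 and -1.89 in these, and -2.01 to -1.82 with a clone left out. The interaction count was 0, and 1 (again Ndufa4l2) with the block and without wild-type replicate 1. The cause was not tested. With a single replicate left out, the counts stayed at 0 in the fits without the block in all 4 comparisons. The replicate block changed no other call of an Nduf gene at this threshold.

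Of 584 alternatives for single genes, 565 kept direction and side of the threshold. The direction changed for the X-linked pair where values lay near 0. The interaction of Ndufa1 was -0.40 to 0.02 over the left-out libraries (0.01 with the block and without wild-type replicate 2), and that of Ndufb11 -0.08 to 0.15 (with the block -0.09 without wild-type replicate 1 and -0.05 without clone 8). By the ratio of mean TPM, a scale added after seeing the data, 26 of 34 autosomal subunits were above 0 on induction in wild-type cells and 21 in ΔCdk8 cells, but 19 in uninduced ΔCdk8 against wild-type cells, where the edgeR fits had 8. In uninduced cells the ranges with a library left out were -0.23 to 0.04 for Ndufa1 and -0.15 to 0.11 for Ndufb11. Residual expression with a replicate left out was 0.745 to 0.999 for Ndufa1 and 0.786 to 0.928 for Ndufb11 in the wild type, and 0.717 to 0.795 and 0.838 to 0.936 in the clones. Summed TPM was computed without Ndufa4, Ndufa4l2 and assembly factors from the start, so that this alternative is the value reported. A number of 3 libraries a group limits what can be seen of changes as small as those of the autosomal subunits.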
